A study of Mus musculus with 30 samples.

Results

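The tendon identity genes described here are Scx, Mkx, Tnmd, Six2, Eya1 and Eya2. They were found by gene name as 6 of the 35973 genes of the RNA tables, and as the annotated gene of 19 of the 16367 entries in 5 lists of chromatin sites. All 6 passed the filter on low values and were tested in every RNA comparison.

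Scx (scleraxis) is a basic helix-loop-helix factor that marks tendon progenitors and pairs with E proteins to act on DNA. Mkx (mohawk) is a homeobox factor needed for normal tendon collagen fibrils, and Tnmd (tenomodulin) encodes a membrane glycoprotein of differentiated tendon cells whose expression depends on Scx. Six2 is a homeobox factor of the sine oculis family, and Eya1 and Eya2 are phosphatases and co-activators that lack a DNA-binding domain and reach genes through sine oculis homeobox proteins. Transcripts of both families are found in developing limb tendons.

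The cells were primary fibroblasts from mouse tail tendon, labelled wildtype in every group, grown with 10% FBS and treated in medium with 0.1% FBS. The study set out to relate mechanical cues, and the co-activators Yap and Taz, to chromatin state and gene expression. RNA libraries (3 per group) came from cells given the solvent DMSO, blebbistatin at 10 µM, which inhibits non-muscle myosin II, or Y27632 at 30 µM, a kinase inhibitor that reduces cell contractility. ATAC libraries, which read accessible chromatin, came from the same 3 treatments with 3 libraries each. A further experiment of 12 libraries had 4 groups of 3: neither drug (labelled DMSO), blebbistatin at 10 µM, doxycycline at 10 ng/mL, and doxycycline with blebbistatin. The labels do not state what doxycycline induced in these cells, which they label wildtype, nor how long any treatment lasted. They do not say whether the 3 libraries of a group came from separate animals or cultures, so p-values measure the spread between these libraries, which may be technical.

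The RNA libraries held 23375386 to 37061737 reads in genes. All 8 fibroblast markers examined (among them Col1a1, Pdgfra and Thy1) had a mean of at least 1 RPM (reads per 1000000, here of the TMM effective library size), while 0 of 6 chondrocyte and 0 of 6 skeletal muscle markers did, with Myod1 and Ckm at 0. The osteoblast, keratinocyte and adipocyte lists each had 1 marker at that level, with Ibsp, Krt1 and Cfd at 0, and 4 of 5 Schwann cell markers reached it. All 6 macrophage and leukocyte markers reached it, and their summed level was 73.6 to 80.9 RPM in DMSO libraries, 98.7 to 115 with blebbistatin and 96.7 to 111 with Y27632. Endothelial markers (3 of 5 at that level) summed to 121 to 123, 77.9 to 87.5 and 109 to 116 RPM in the same order. Nearly all of it was Tek, with means of 117, 75.9 and 106 RPM. The other endothelial markers (Pecam1, Cdh5, Kdr and Vwf) went the other way, with higher means under both treatments than with DMSO. Mural markers (3 of 5) summed to 231 to 239, 170 to 174 and 174 to 195, in which Acta2 had means of 155, 79.5 and 90.9 RPM while Cspg4 went the other way (75.5, 88.8 and 91.5). The part of these other cell types in the results below was not tested, and in bulk RNA fewer cells of a type and less RNA per cell cannot be told apart.

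Tendon identity genes did not move in 1 direction with either treatment. With blebbistatin, 2 of the 6 were called at an adjusted p under 0.05 (limma), Mkx higher and Tnmd lower, where 53.0% of all 14882 genes tested were called (26.1% higher and 26.9% lower). With Y27632, 2 of the 6 were called, Mkx higher and Eya1 lower, against 35.9% of 14833 genes (18.1% higher and 17.8% lower). Between blebbistatin and Y27632, 3 of the 6 were called by edgeR, Eya1 and Six2 higher and Tnmd lower with blebbistatin, against 53.1% of 14941 genes (26.9% higher and 26.2% lower). The median absolute log2 change of the 6 was 0.17 with blebbistatin, 0.20 with Y27632 and 0.31 between the treatments, beside 0.22, 0.15 and 0.22 over all genes tested. None of the 6 was called with a log2 change of 1 or more in either direction, which 6.57% of genes reached with blebbistatin, 2.08% with Y27632 and 5.31% between the treatments. In the authors' deposited tables, 1 of the 6 (Tnmd) was past an adjusted p of 0.05 with blebbistatin and 2 (Eya1 and Mkx) with Y27632, where 38.9% and 28.8% of the genes with an adjusted p in those tables were. Calls in both directions were near balance, 49.2% higher with blebbistatin and 50.6% between the treatments, but 64.4% and 63.6% were higher when libraries were scaled to total reads instead.

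**Figure D1:**
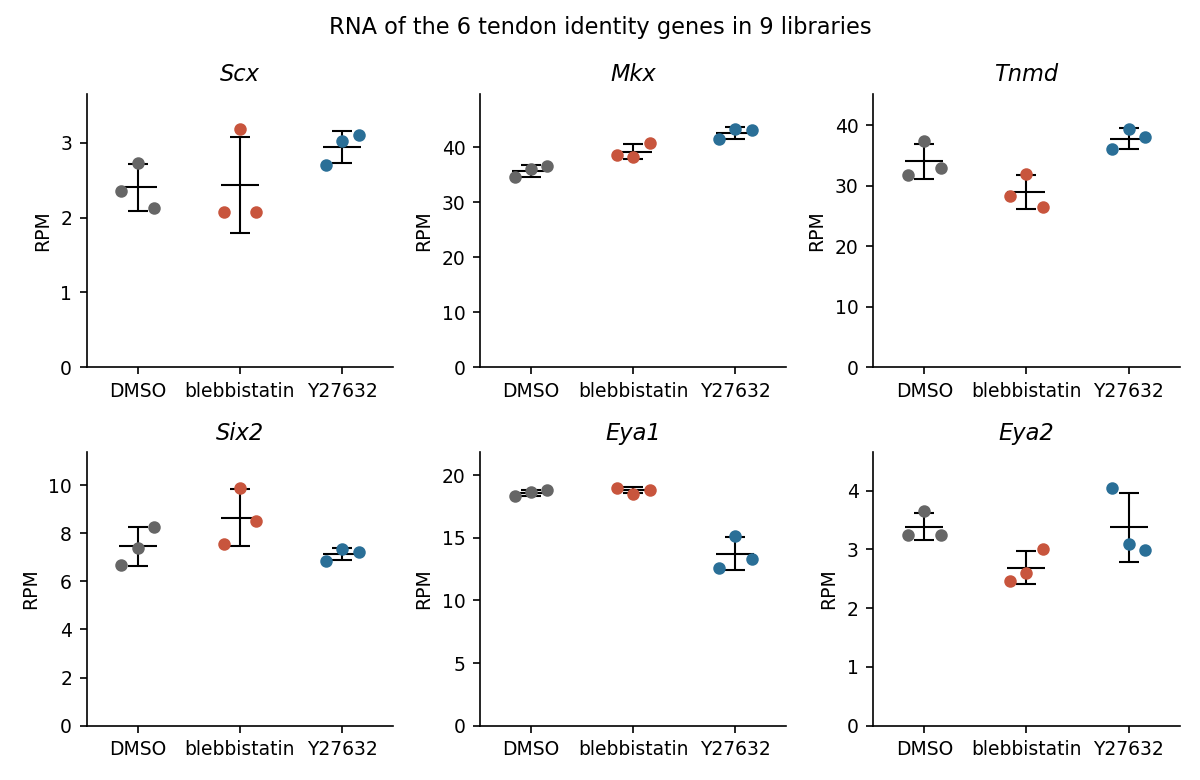
RPM of each tendon identity gene (vertical axes, starting at 0) in 3 DMSO, 3 blebbistatin and 3 Y27632 libraries, each point 1 library, with the group mean and SD in black, on 1 scale over the 9 libraries. Eya1 is low in all 3 Y27632 libraries (12.6 to 15.2 against 18.3 to 18.8 with DMSO), Mkx is higher with both treatments, and Scx and Six2 are spread most widely with blebbistatin.

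Scx, the marker of tendon progenitors, had 49 to 102 reads per library, and no change in it was called. Its normalised counts (reads divided by 1 size factor per library) were 62.6, 72.8 and 56.3 with DMSO and 55.1, 83.9 and 55.1 with blebbistatin. Blebbistatin replicate 2 was above every DMSO library and the other two were below every one, so the groups overlapped. The log2 change was -0.0031 with an SE of 0.19 (limma, adjusted p = 0.991). Its 95% interval of -0.42 to 0.41 includes changes up to that size in either direction. The DMSO libraries, which both comparisons share, were 65.0, 75.6 and 58.5 on the scale of the Y27632 table, and the Y27632 libraries were 74.4, 83.2 and 86.0. All but the lowest Y27632 library were above every DMSO library, with a log2 change of 0.29 ± 0.15 (SE) that was not called (limma, adjusted p = 0.143). Between the treatments the log2 difference was -0.24 ± 0.18 (SE, edgeR, adjusted p = 0.262). Blebbistatin replicate 2 decided this result: without it the difference was -0.49 and was called (edgeR, adjusted p = 0.0277).

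Mkx was higher with both treatments. Its normalised counts were 917, 960 and 968 with DMSO and 1027, 1006 and 1086 with blebbistatin, all 3 above the highest DMSO library. The log2 change was 0.13 ± 0.048 (SE), or 9.57%, at an adjusted p of 0.0360 by limma. In the authors' deposited table the adjusted p of Mkx was 0.120. Leaving out DMSO replicate 1 ended the call (limma, adjusted p = 0.118), as did leaving out DMSO replicate 2 (0.0637), blebbistatin replicate 1 (0.0656) or blebbistatin replicate 3 (0.136). It was also lost with DESeq2 (0.0878), by limma without a trend (0.0639) and without the filter on low values (0.0507).

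With Y27632, Mkx normalised counts were 1139, 1193 and 1192 against 954, 996 and 1006 in the same DMSO libraries. The groups did not overlap, and the log2 change of 0.25 ± 0.044 (SE), a rise of 19.2%, was called (limma, adjusted p = 0.000644). On a scale joined over the 9 libraries (RPM), the group means of Mkx were 35.7 ± 1.1 with DMSO, 39.2 ± 1.4 with blebbistatin and 42.6 ± 1.0 with Y27632 (SD, n = 3 each). The order DMSO, blebbistatin, Y27632 was clear of overlap at each step, but the step between the treatments, a log2 difference of -0.11 ± 0.045 (SE), was not called (edgeR, adjusted p = 0.0544). That step was called with the size factors of DESeq2 (edgeR, adjusted p = 0.0404) and without blebbistatin replicate 3 (0.0189) or Y27632 replicate 1 (0.0489). In the alternatives that kept all libraries it ran from -0.12 to -0.044.

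Tnmd was lower with blebbistatin. Its normalised counts were 843, 993 and 874 with DMSO and 753, 841 and 706 with blebbistatin. The highest blebbistatin library lay just under the lowest DMSO library, and on the joined scale they crossed, at 31.9 and 31.7 RPM. Tnmd fell by 0.24 on the log2 scale, with an SE of 0.074 (limma, adjusted p = 0.0181). Leaving out DMSO replicate 2 ended the call (log2 change -0.17, limma adjusted p = 0.0900), and so did leaving out blebbistatin replicate 1 (-0.23, 0.0591) or blebbistatin replicate 3 (-0.18, 0.0751). It was also lost when libraries were scaled to total reads (-0.15, limma adjusted p = 0.0843) and by limma without a trend (0.0841).

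With Y27632, Tnmd normalised counts were 989, 1084 and 1052, against 876, 1031 and 908 with DMSO. Only the highest DMSO library reached into the Y27632 range, and the log2 change of 0.15 ± 0.061 (SE) was not called (limma, adjusted p = 0.0684). Without DMSO replicate 2 it was 0.22 and was called (limma, adjusted p = 0.0115). It was also called without Y27632 replicate 1 (0.19, limma adjusted p = 0.0468) and with the replicate number as a block (limma, adjusted p = 0.0431). Tnmd differed between the treatments: its joined-scale means were 28.9 ± 2.8 RPM with blebbistatin and 37.8 ± 1.7 with Y27632 (SD, n = 3 each), with DMSO between them at 34.0 ± 2.9. The log2 difference of -0.37 ± 0.070 (SE) was called (edgeR, adjusted p = 0.000484), and it was called in every alternative run for that comparison.

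The stretch before the Tnmd start is shown because Scx acts through E-boxes (CANNTG) and Tnmd is the target gene among the 6. These are the 250 bases upstream of the RefSeq start, chrX:133850758-133851007, plus strand of GRCm38.p6, 5′ to 3′, with Tnmd itself annotated at chrX:133851008-133865577.
Tnmd promoter: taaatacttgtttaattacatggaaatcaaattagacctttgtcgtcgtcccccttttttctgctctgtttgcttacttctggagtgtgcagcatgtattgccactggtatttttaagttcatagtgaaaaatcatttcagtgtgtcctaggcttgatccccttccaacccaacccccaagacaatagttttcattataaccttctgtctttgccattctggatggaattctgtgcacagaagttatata
The search covered both strands for CANNTG and for GGAATG, a core of the TEAD motif, whose matches could overlap in part. Neither occurs in these 250 bases, while 66.2% of 32851 RefSeq promoter stretches of that length hold CANNTG and 12.6% hold GGAATG. The same 2 searches found no match before Six2, the only other gene of the 6 with a promoter stretch in the table used here. A missing match says only that these letters are not in this window.

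Six2, a DNA-binding partner of Eya proteins, was not called against DMSO with either treatment. Its normalised counts were 178, 196 and 219 with DMSO and 200.5, 261 and 227 with blebbistatin. The 2 highest blebbistatin libraries were above every DMSO library and the groups overlapped, with a log2 change of 0.21 ± 0.11 (SE, limma, adjusted p = 0.144). Scaled to total reads, the change was 0.29 and was called (limma, adjusted p = 0.0442). With Y27632 the counts were 189, 202 and 200.2 against 185, 204 and 228, all inside the DMSO range, with a log2 change of -0.06 ± 0.097 (SE, limma, adjusted p = 0.685). Between the treatments Six2 was higher with blebbistatin, at 7.54, 9.89 and 8.52 RPM against 6.86, 7.33 and 7.24 with Y27632. These groups did not overlap, and the log2 difference of 0.29 ± 0.10 (SE) was called (edgeR, adjusted p = 0.0291). The call was lost without blebbistatin replicate 2 (0.18, edgeR adjusted p = 0.168), blebbistatin replicate 3 (0.0550), Y27632 replicate 1 (0.0907) or Y27632 replicate 3 (0.0553).

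Eya1 had the largest change of the 6, and it was seen with Y27632. Its normalised counts were 507, 514 and 517 with DMSO and 347, 418 and 369 with Y27632. All 3 Y27632 libraries lay well under the DMSO libraries, which spanned a 1.02-fold range. Eya1 fell by 0.44 on the log2 scale with an SE of 0.073, a level 1.36-fold lower (limma, adjusted p = 0.000403). With blebbistatin the counts were 505, 488 and 502 against 488, 495 and 497, and the groups overlapped. The log2 change was 0.013 ± 0.056 (SE) with a 95% interval of -0.11 to 0.14 (limma, adjusted p = 0.862), which does not reach the size seen with Y27632. The direct comparison put Eya1 0.47 ± 0.067 (SE) higher with blebbistatin than with Y27632 on the log2 scale (edgeR, adjusted p = 4.42e-05). Both the fall with Y27632 and the difference between the treatments were called in every alternative run.

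Eya2, the second co-activator, was not called in any comparison. Its normalised counts were 86.4, 97.1 and 86.2 with DMSO and 65.4, 68.2 and 79.9 with blebbistatin. All 3 blebbistatin libraries were below every DMSO library, but at 63 to 88 reads per library the change of -0.33 ± 0.14 (log2, SE) missed the threshold (limma, adjusted p = 0.0601). It was called without blebbistatin replicate 3 (limma, adjusted p = 0.0408) and by limma without a trend (0.0305). With Y27632 the counts were 111, 85.0 and 82.8 against 89.8, 101 and 89.5, 1 library above and 2 below the DMSO range, and the log2 change was -0.016 ± 0.14 (SE, limma, adjusted p = 0.942). Between the treatments the log2 difference was -0.33 ± 0.15 (SE, edgeR, adjusted p = 0.0781), and it was called without blebbistatin replicate 3 (edgeR, adjusted p = 0.0491). Groups that do not overlap, as for Eya2, Mkx and Tnmd here, were found for 60.2% of all genes tested with blebbistatin, for 48.1% with Y27632 and for 60.6% between the treatments.

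**Figure D2:**
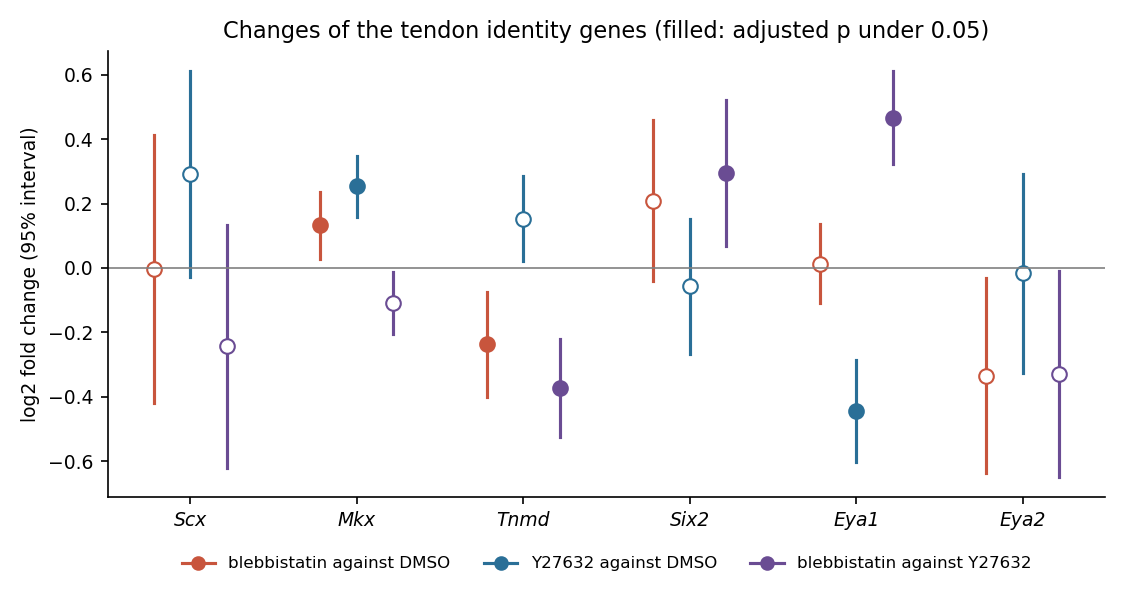
Log2 fold change of each tendon identity gene (vertical axis, with 95% intervals) for blebbistatin against DMSO, Y27632 against DMSO (both limma) and blebbistatin against Y27632 (edgeR), with filled points for an adjusted p under 0.05. The fall of Eya1 with Y27632 (-0.44) and its near-zero change with blebbistatin (0.013) stand side by side, and the widest intervals belong to Scx and Eya2.

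The site lists gave chromatin values near 3 of the 6 genes. Each list holds only sites past the authors' FDR threshold, with the authors' log2 mean of each group, log2 fold and FDR. No spread between libraries could therefore be given, and the depth is unknown. The smallest absolute log2 fold was 1 in each of the 3 lists of the doxycycline experiment. It was 1.24 in the ATAC list of blebbistatin and 1.11 in that of Y27632. Eya1 was the annotated gene of 14 entries (11 distinct coordinate pairs in 4 lists), Mkx of 3 and Six2 of 2, while Scx, Tnmd and Eya2 had none. All 19 entries were annotated as intergenic, and 13 lay over 100 kb from the start of the gene. The annotation assigns a site to the nearest start, which does not show that the site acts on that gene.

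Near Eya1, a pair of neighbouring sites about 157 kb upstream of the start was lower with blebbistatin in ATAC, and 1 of the pair was also listed as lower with Y27632. The first, chr1:14467125-14467320 (mm10), had a log2 mean of 6.26 with DMSO and 4.28 with blebbistatin, a log2 fold of -1.98 (authors' FDR 0.00271). The second, chr1:14467441-14467673, went from 6.68 to 4.57 with blebbistatin, a log2 fold of -2.11 (authors' FDR 0.00163), and from 6.59 to 5.05 with Y27632, a log2 fold of -1.54 (authors' FDR 0.00293). Only the second was listed for Y27632, and whether the first differs between treatments was not tested. Both ATAC lists share their DMSO libraries, and nearly all of their sites were lower: 98.2% of 970 with blebbistatin and 85.0% of 207 with Y27632. Among the blebbistatin sites, 4.64% had an absolute log2 fold at least as large as the second site and 9.48% at least as large as the first.

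The deposited blebbistatin list marks matches of a TEAD motif, bound by the partners of Yap and Taz, and 62.2% of its 970 sites hold one. The first Eya1 site has 1 match and the second has none. The match is shown because it is the sequence the list ties to an identity gene. It lies on the plus strand at position 52 of the site as the list counts it, all 10 letters as deposited, with capitals marking the whole match.
Eya1 site, TEAD motif match: AAGAATGTAA
The GC content was 37.4% at the first site and 43.97% at the second, beside a median of 44.7% over the list. A match is a description of letters and does not show binding.

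The doxycycline experiment listed the same stretch upstream of Eya1. The site at chr1:14467145-14467311 overlaps the first ATAC site, and it went from a log2 mean of 4.62 with neither drug to 5.88 with doxycycline (log2 fold 1.26, authors' FDR 0.0003). With blebbistatin added to doxycycline it was at 4.65 (log2 fold -1.23, authors' FDR 0.000173). The site at chr1:14467446-14467686 overlaps the second, and it went from 5.21 to 6.78 with doxycycline (log2 fold 1.57, authors' FDR 7.83e-09). In the list of doxycycline with blebbistatin against doxycycline, the site at chr1:14467436-14467686 went from 6.80 to 5.53 (log2 fold -1.27, authors' FDR 4.03e-07). A site 94.96 kb upstream, chr1:14405050-14405276, showed the same pair of directions, with log2 folds of 1.27 and -1.54. These 2 lists share the doxycycline group, so a high value in that group enters both folds with opposite sign. None of these Eya1 sites was in the list of blebbistatin against neither drug, while the ATAC blebbistatin list held the pair. Neither of these lists holds a site with an absolute log2 fold under 1 (smallest 1 and 1.24).

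A further 4 sites upstream of Eya1, at 49.9, 109, 151 and 152 kb, were higher with doxycycline, by log2 folds of 1.64, 1.45, 1.17 and 1.06. None of them overlapped a site of another list. The remaining Eya1 site, chr1:14159962-14160187, lies beyond the 3′ end of the gene, 150 kb from its start, and was lower with doxycycline (5.48 to 3.93, log2 fold -1.55, authors' FDR 0.000141). It belongs to the 4.15% of the 7613 sites in the doxycycline list that were lower.

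Mkx had 2 sites that were higher with doxycycline. The site at chr18:7045871-7046093, 41.2 kb upstream, went from 5.48 to 6.87 (log2 fold 1.39, authors' FDR 1.81e-07), and the site at chr18:6898775-6899019, 106 kb from the start on the other side, from 4.93 to 6.10 (log2 fold 1.17, authors' FDR 0.000146). A different site 37.7 kb upstream was lower when blebbistatin was added to doxycycline (5.34 to 4.16, log2 fold -1.18, authors' FDR 0.00131). Six2 had 1 site in the list of blebbistatin against neither drug, at chr17:85704956-85705162, 16.8 kb upstream, which went from 5.75 to 4.75 (authors' FDR 0.0391). Its log2 fold of -1 is the smallest absolute fold in that list, of which 99.0% were lower. Another Six2 site, 218 kb upstream, was higher with doxycycline (4.46 to 5.86, log2 fold 1.41, authors' FDR 1.38e-05). In the list of doxycycline with blebbistatin against doxycycline, all 4 entries of identity genes were lower, as were 99.8% of its 6346 sites.

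**Figure D3:**
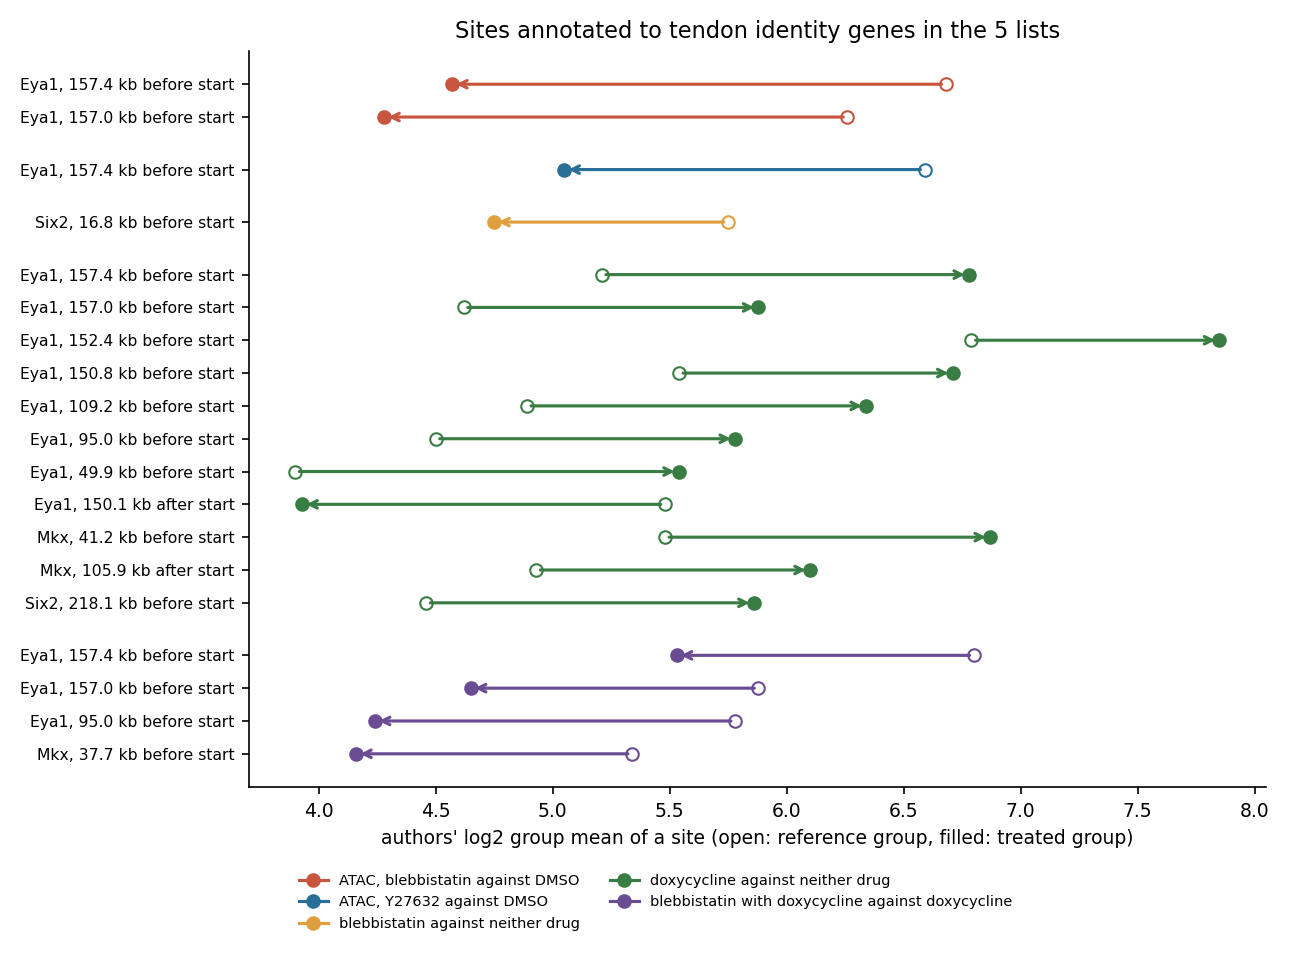
Authors' log2 group means (horizontal axis) of the 19 listed sites annotated to Eya1, Mkx or Six2, with open points for the reference group, filled points for the treated group and colours for the list, labelled by distance from the gene start. The Eya1 pair at about 157 kb is lower with blebbistatin and higher with doxycycline, and 10 of the 11 doxycycline entries point to higher values. In the whole doxycycline list, 7297 of 7613 sites were higher.

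RNA and sites near Eya1 can be set side by side only by treatment. With blebbistatin the ATAC pair had log2 folds of -1.98 and -2.11 while Eya1 RNA changed by 0.013, and with Y27632 the listed site had -1.54 while Eya1 RNA changed by -0.44. No RNA libraries of the doxycycline experiment were analysed here.

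Among the 11 genes Six2 to Six6, Eya1 to Eya4, Dach1 and Dach2, whose Dach members act as co-repressors beside the others, 9 could be tested. Six3 had 0 reads in every library and Six6 had 0 or 1. With blebbistatin 3 were called higher and 3 lower, and with Y27632 also 3 and 3 (limma). Of all genes tested, 26.1% were called higher and 26.9% lower with blebbistatin, and 18.1% and 17.8% with Y27632. The median log2 change of the 9 was 0.013 and -0.06, beside 0.0021 and 0.0040 over all genes tested. The counts include Six2, Eya1 and Eya2 themselves.

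Six4, another homeobox factor of the family, fell by 0.69 with blebbistatin (limma, adjusted p = 4.34e-06), and its change of -0.15 with Y27632 was not called (limma, adjusted p = 0.0806). Six5 fell with both, by 0.37 and 0.48 (limma, adjusted p = 0.00147 and 1.50e-05).

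Eya4, another co-activator of the family, had a mean of 413 ± 40 normalised counts with DMSO and 842 ± 79 with blebbistatin (SD, n = 3 each), a log2 change of 1.03 (limma, adjusted p = 4.69e-07). With Y27632 it rose by 0.73 (limma, adjusted p = 4.07e-06), and Eya3 rose by 0.17 and 0.16 (limma, adjusted p = 0.00300 and 0.0300). The Eya3 call with Y27632 did not survive leaving out DMSO replicate 2 (limma, adjusted p = 0.0884), DMSO replicate 3 (0.0594), Y27632 replicate 1 (0.0502) or Y27632 replicate 3 (0.138). That call was also lost by limma without a trend (adjusted p = 0.123). The Dach genes moved apart: Dach1 rose by 1.63 and 0.80, and Dach2 fell by 1.21 and 0.69 (limma, adjusted p = 5.95e-07, 0.000599, 0.000278 and 0.00872). The Dach1 means were 57.4 ± 5.3 normalised counts with DMSO and 180 ± 22 with blebbistatin (SD, n = 3 each).

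Of 20 partners and regulators of the tendon factors (E proteins, Egr, Smad and Id genes and others), 12 were higher and 4 lower with blebbistatin, and 11 and 2 with Y27632 (limma), where 26.1% and 26.9% of all genes tested were called higher and lower with blebbistatin, and 18.1% and 17.8% with Y27632. The median log2 change was 0.21 and 0.10, beside the same near-zero medians over all genes. Egr1, an immediate early factor that activates tendon collagen genes, rose by 1.78 and 2.52 on the log2 scale, and Egr2 by 1.02 and 2.497 (limma, adjusted p = 3.38e-07, 2.99e-09, 3.33e-05 and 7.43e-10). Id1, which sequesters the E proteins that Scx needs as partners, rose by 0.98 and 0.44 (limma, adjusted p = 1.41e-05 and 0.00490).

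Id3, of the same kind, rose with blebbistatin by 0.71 and fell with Y27632 by 0.21 (limma, adjusted p = 3.39e-08 and 0.00360), a difference of 0.93 between the treatments (edgeR, adjusted p = 4.86e-10). Smad3, which carries TGF-beta signals to tendon genes, did the opposite: it fell by 0.21 with blebbistatin and rose by 0.48 with Y27632 (limma, adjusted p = 0.000186 and 9.31e-07). The difference for Smad3 was -0.67 (edgeR, adjusted p = 2.40e-09). Sox9, shared by tendon and cartilage progenitors, rose by 0.55 and 0.52 (limma, adjusted p = 0.00124 and 0.00231), to means of 199 ± 14 normalised counts in the blebbistatin table (136 ± 16 with DMSO) and 203 ± 14 in the separately normalised Y27632 table (142 ± 17 with DMSO; SD, n = 3 each).

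Of 26 tendon matrix genes, 11 were higher and 8 lower with blebbistatin, and 13 and 3 with Y27632 (limma), beside the same shares of all genes (26.1% and 26.9%, and 18.1% and 17.8%). The median log2 change was 0.23 and 0.12, beside 0.0021 and 0.0040 over all genes. Kera, Lum and Fmod, small leucine-rich proteoglycans that bind collagen fibrils, rose by 0.54, 0.45 and 0.25 with blebbistatin (limma, adjusted p = 3.21e-06, 1.52e-07 and 0.00140) and by 1.05, 0.77 and 0.66 with Y27632 (6.09e-08, 3.55e-09 and 3.47e-08). Each was higher with Y27632 than with blebbistatin, by edgeR (log2 differences of -0.50, -0.31 and -0.40, adjusted p = 7.22e-06, 8.17e-07 and 7.15e-06). Dcn and Bgn of the same kind, named here after their values were seen, had differences of -0.022 and -0.10 (edgeR, adjusted p = 0.525 and 0.00475). Against DMSO, Dcn rose by 0.28 with blebbistatin and 0.31 with Y27632 (limma, adjusted p = 1.18e-05 and 5.90e-06). Comp, a collagen-binding glycoprotein, rose by 0.60 and 0.56, Ecm2 by 0.61 and 0.54, and Col6a3, a chain of pericellular collagen VI, by 0.63 and 0.46 (all called by limma). The 8 genes called lower with blebbistatin, named here after their values were seen, were mostly collagens of the fibril or its surface. Col11a1 fell by 0.52, Col5a2 by 0.48, Col12a1 by 0.40, Col5a1 by 0.30, Col1a1 by 0.25 and Col1a2 by 0.12, and the log2 changes of the matrix glycoprotein Tnc and the proteoglycan Bgn were -0.34 and -0.15 (limma). Scaled to total reads, Col1a2 (-0.037, limma adjusted p = 0.465) and Bgn (-0.07, 0.108) lost their calls, and Col1a2 also lost it without DMSO replicate 1 (0.102) or 2 (0.111) or blebbistatin replicate 1 (0.120) or 3 (0.115). Of these, Col5a1, Col5a2 and Tnc were the 3 called lower with Y27632. The other collagens of the list, also named after their values were seen, were not called lower with blebbistatin. Col6a1 and Col6a2 rose by 0.25 and 0.28, as Col6a3 did (all called by limma). Col3a1 and Col14a1 were not called (log2 changes of 0.032 and 0.040, limma adjusted p = 0.551 and 0.578). Between the treatments 5 of the 26 were higher and 11 lower with blebbistatin (edgeR), where 26.9% and 26.2% of all genes were. Scaled to total reads, 6 were higher and 7 lower. Over all alternatives, 2 to 6 were higher and 7 to 14 lower. The macrophage markers that were higher with both treatments stand beside these counts, and their part was not tested.

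**Figure D4:**
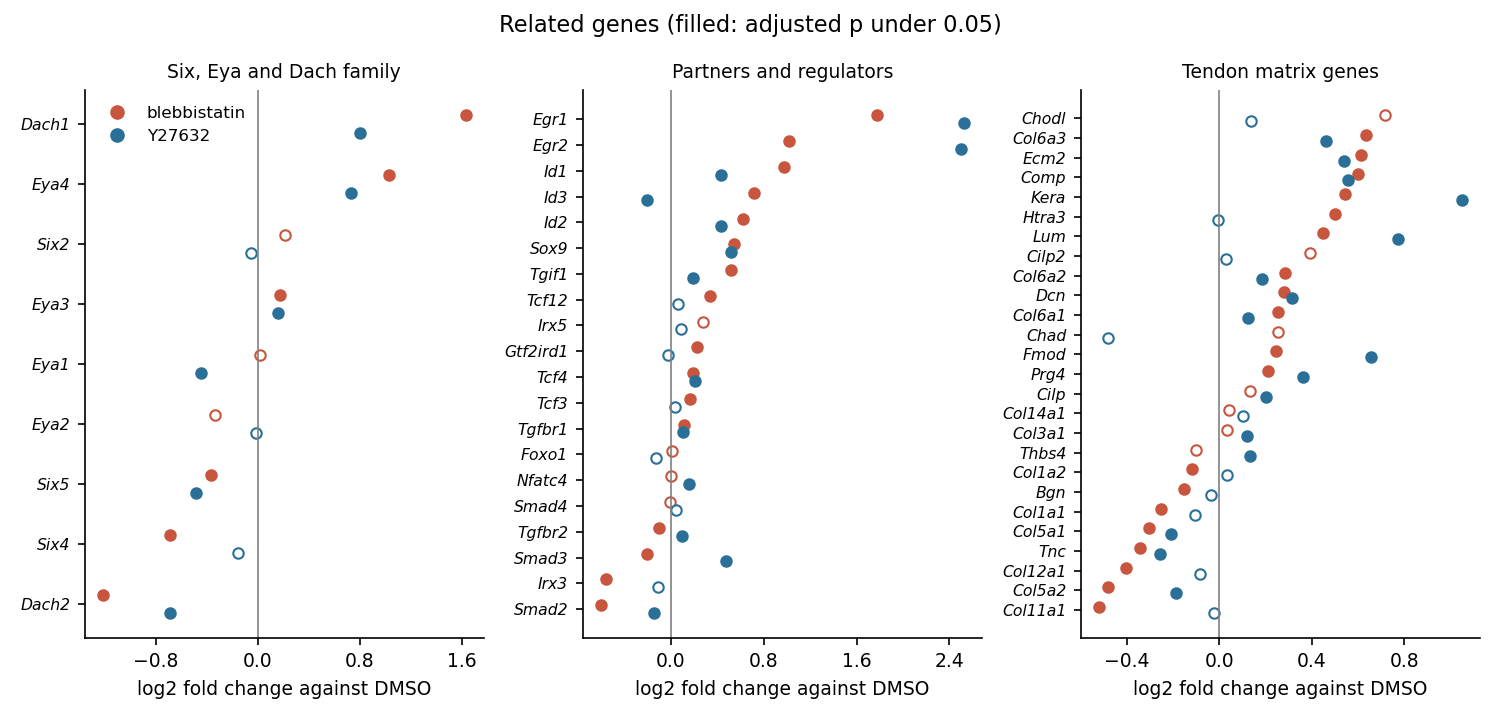
Log2 fold change against DMSO (horizontal axes) for genes of 3 lists, with red for blebbistatin, blue for Y27632 and filled points for an adjusted p under 0.05 (limma). Dach1 and Eya4 stand at the top of their panel (1.63 and 1.03 with blebbistatin) and Dach2 and Six4 at the bottom, while Six2, Eya1 and Eya2 lie in between.

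Genes whose levels ran most like each member were found by Pearson correlation over the 9 libraries, as a description. The libraries share their treatment groups, so any gene that moves with treatment in the same way scores high. For Eya1 the nearest were Banp, Dgat2 and Sorbs3 (r = 0.99 each). For Tnmd they were Chrdl1, a BMP antagonist (0.97), Sec22c (0.96) and Mettl2 (0.96). For Mkx they were a gene whose deposited name had been turned into a date (0.98), 1110032A03Rik (0.97) and Prrx1, a limb mesenchyme homeobox factor (0.97). The values were lower for Six2 (Anapc16 0.93, Psme2 0.92, Gm9222 0.91), Eya2 (Dph5 0.95, Adamts6 0.95, BC005561 0.94) and Scx (Rpl13 0.93, App 0.93, Kctd21 0.92). None of Mkx, Tnmd, Six2 and Eya1 was among the 3 nearest genes of another member. Scx and Eya2 averaged under 100 reads, so they were not among the genes compared and could not be listed. Of all pairs of members, Scx and Tnmd had the highest r (0.75).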

How the data were processed

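RNA was measured in 9 libraries. For each gene and library the authors deposited a signal, namely a read count over the size factor of that library, in 2 separately normalised tables. All values were whole multiples of 1 step (tolerance 0.01 reads), so whole reads were recovered, and the DMSO reads differed at 0 of 35972 shared genes. Fold changes in log2 and adjusted p-values of the RNA tables, and the log2 group means, log2 folds, p-value and FDR columns of the 5 site lists, are the authors', per the file headers, as are the GC fraction of each site in 1 list and the annotated distance. The submitters' processing notes name mm10, HISAT2, Picard, featureCounts, DESeq2, Bowtie2, SAMtools, MACS2, DiffBind and HOMER, with no settings. A score column (the Wald statistic, per the file headers) in the authors' RNA tables was not used. The strand setting is not given in the sources used here. The header of the doxycycline list calls its reference group blebbistatin without doxycycline. At 13 shared sites it differed from the group with neither drug by -0.13 (SD 0.0044), and from the headed group by 1.12 (SD 0.184), so it was read as neither drug.

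Genes whose normalised counts averaged 10 or more were tested in R 4.3.3 with limma 3.58.1 (trend) on log2(normalised count + 1), which understates changes of low genes, each treatment against DMSO. The treatments were compared by edgeR 4.0.16 (quasi-likelihood, TMM) on recovered reads of all 9 libraries. Adjusted p-values are Benjamini-Hochberg over all genes tested, and a call is an adjusted p under 0.05. The tests were checked on simulated data. Alternatives were other pseudocounts and filters, edgeR, DESeq2 1.42.0, a replicate block and leaving out each library, and scaling to total reads, which was chosen after seeing the data. Every pair of libraries of a group differed by more than sampling noise (chi-square per degree of freedom 2.63 to 8.06). Read totals limit precision for Scx and Eya2. Promoters and gene positions came from RefSeq on GRCm38.p6 (2 of the 6 genes had a promoter there). Named genes are the 6 members, the tested genes of the Six2, Eya1 and Dach1 families (some items are not reported here), the up to 4 largest called changes per treatment of the other lists, and the 3 most like genes of each member among those with a mean of at least 100 reads. Members and lists were chosen with earlier results of these data known. Sample columns without a matching label numbered 0.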

Additional observations from a re-analysis of the deposited data

How the results depend on the processing

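With blebbistatin, the number of tendon identity genes called was 2, and it was 1 without the filter on low values, 1 with DESeq2, 1 with limma without a trend (Eya2, with Mkx and Tnmd lost), and 0 to 2 when 1 library was left out. With Y27632 it was 2 to 3, and between the treatments 2 to 4 with a library left out. The cause was not tested. The replicate numbers are shared by the groups, but same-numbered libraries did not deviate together (correlations of -0.21 to 0.07). Libraries of different numbers had correlations of -0.22 to 0.17. Whether same-numbered libraries share an animal or culture is not in the labels and was not tested. With the number as a replicate block, 2, 3 and 3 members were called in the order above, Tnmd with Y27632 being the addition (limma, adjusted p = 0.0431), and Dach2 between the treatments was lost (edgeR, adjusted p = 0.0528). Directions turned only for changes that were not called. Scx with blebbistatin was 0.031 by edgeR, 0.028 by DESeq2, 0.078 scaled to total reads, and -0.20 to 0.097 with a library left out. Eya2 with Y27632 was 0.0060 by edgeR, 0.0023 by DESeq2 and -0.15 to 0.060 with a library left out, and Six2 with Y27632 was -0.13 to 0.020. Between the treatments, leaving out a library gave -0.013 to 0.089 for Sox9, -0.0064 to 0.13 for Comp and -0.021 to 0.085 for Eya3. Dach2 between the treatments also lost its call with DESeq2 (adjusted p = 0.101) and scaled to total reads (edgeR, adjusted p = 0.0791). It lost the call in 6 of 9 runs with a library left out as well. Col6a3 between the treatments lost its call with DESeq2 (adjusted p = 0.0791) and in 3 of those 9 runs. Within 100 kb of the start, the site counts were 0 (ATAC blebbistatin), 0 (ATAC Y27632), 3 (doxycycline) and 2 (blebbistatin with doxycycline). At an FDR of at most 0.01 the Six2 site of the blebbistatin list was gone (0 left).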

Other observations

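Libraries of 1 group did not keep 1 order across the identity genes, but a few stood high or low for several of them. Blebbistatin replicate 2 had the highest Scx (3.18 RPM), Tnmd (31.9) and Six2 (9.89) of its group and the lowest Mkx (38.2) and Eya1 (18.5). DMSO replicate 2 had the highest Scx (2.74), Tnmd (37.3) and Eya2 (3.65) of its group. Leaving out these libraries moved the values given above for Scx, Tnmd and Six2. With 3 libraries per group, no test of a library that stands apart was made.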
